A study of Mus musculus with 24 samples.

Results

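Dupd1, Rhbdl1, Arrdc2, Gpt2 and Prss55 are 5 of the 24537 genes in the count table, and all 5 passed the filter on low counts in both fits used below. They were chosen by their response in these data, namely large falls in Cre+ EDL muscles or a more negative change in EDL than in SOL muscles, so those falls and differences are given as descriptions, with no test. The rule named no threshold, so genes just outside it cannot be named, and some genes with larger EDL falls are not among the 5. RNA came from the extensor digitorum longus (EDL), a fast muscle of the lower leg, and the soleus (SOL), a slow one, of mice aged 2 months. The Cre+ mice were Acta1-Cre+/4Fhet and the Cre- controls Acta1-Cre-/4Fhet. Both genotypes carried 1 copy of the doxycycline-inducible OSKM cassette (Oct4, Sox2, Klf4 and Myc) and both were given doxycycline (Dox) in the drinking water at 1 mg/ml, and muscles were taken after 2.5 days, 5.5 days and 8.5 days. Acta1-Cre acts in myofibres, where it removes a stop in front of the Dox-dependent activator, while the RNA was that of the whole muscle. Each of the 12 groups of muscle, genotype and day had 2 libraries, 24 in all. In whole muscle, fewer cells of a type and less RNA per cell cannot be told apart.

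The 5 genes belong to unrelated families. Dupd1, also called Dusp29, encodes a dual-specificity phosphatase of muscle, an enzyme class that takes phosphate off tyrosine as well as serine and threonine residues and is best known for switching off MAP kinases. Rhbdl1 encodes a member of the rhomboid family, proteases that cut other proteins within the membrane. Arrdc2 encodes an alpha-arrestin, a family of adaptors that bring ubiquitin ligases of the Nedd4 family to membrane proteins. Gpt2 encodes mitochondrial alanine aminotransferase, which passes the amino group of glutamate to pyruvate and so links glucose and amino acid metabolism in working muscle. Prss55 encodes a trypsin-like serine protease known chiefly from the testis. Fast muscle relies more on glycolysis than slow muscle does, and alanine is a main carrier of its pyruvate and nitrogen to the liver.

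In the coordinates of mm10, Dupd1 (NM_001013826) lies on the minus strand of chromosome 14 from 21676572 to 21714576, and Prss55 (NM_001081063) on the minus strand of the same chromosome from 64075443 to 64085389. Rhbdl1 (NM_144816) lies on the minus strand of chromosome 17 from 25834465 to 25837127. Arrdc2 (NM_027560) and Gpt2 (NM_173866) share chromosome 8, from 70835138 to 70839720 on the minus strand and from 85492617 to 85527558 on the plus strand. The RefSeq table used for promoters starts Gpt2 at 85492576, and its motif positions count from there. The exon lengths used for FPKM (counts scaled by exon length in kilobases and by the library total) were 1097 bases for Dupd1, 1533 for Rhbdl1, 2336 for Arrdc2, 3582 for Gpt2 and 1008 for Prss55. Over the 24 libraries, Arrdc2 and Gpt2 were the most abundant, each with a mean of 39.5 FPKM, followed by Dupd1 (21.5 FPKM), Rhbdl1 (11.6 FPKM) and Prss55 (1.07 FPKM).

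The sequence before the transcription start is printed for the 4 genes that have a promoter in the RefSeq table (GRCm38.p6), to show which known motifs stand before genes that fell together. Each is 250 bases, 5′ to 3′ on the gene's own strand, with matched motifs in capitals. Dupd1 covers chr14:21714577-21714826 (minus strand), Rhbdl1 chr17:25837128-25837377 (minus strand), Arrdc2 chr8:70839721-70839970 (minus strand) and Gpt2 chr8:85492326-85492575 (plus strand).
Dupd1: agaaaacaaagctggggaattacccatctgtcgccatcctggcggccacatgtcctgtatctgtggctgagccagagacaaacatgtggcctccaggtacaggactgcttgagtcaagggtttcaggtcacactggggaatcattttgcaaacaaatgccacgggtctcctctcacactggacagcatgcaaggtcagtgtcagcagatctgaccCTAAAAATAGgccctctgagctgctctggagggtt
Rhbdl1: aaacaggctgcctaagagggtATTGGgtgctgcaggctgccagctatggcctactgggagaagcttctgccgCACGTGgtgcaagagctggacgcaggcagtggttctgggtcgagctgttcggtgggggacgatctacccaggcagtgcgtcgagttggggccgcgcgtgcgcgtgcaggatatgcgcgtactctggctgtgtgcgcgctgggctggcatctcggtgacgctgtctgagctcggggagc
Arrdc2: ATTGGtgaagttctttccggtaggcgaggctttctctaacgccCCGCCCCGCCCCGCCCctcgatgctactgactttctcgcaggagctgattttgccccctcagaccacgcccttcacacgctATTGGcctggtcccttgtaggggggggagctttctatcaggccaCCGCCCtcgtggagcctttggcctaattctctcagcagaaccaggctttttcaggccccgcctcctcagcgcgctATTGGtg
Gpt2: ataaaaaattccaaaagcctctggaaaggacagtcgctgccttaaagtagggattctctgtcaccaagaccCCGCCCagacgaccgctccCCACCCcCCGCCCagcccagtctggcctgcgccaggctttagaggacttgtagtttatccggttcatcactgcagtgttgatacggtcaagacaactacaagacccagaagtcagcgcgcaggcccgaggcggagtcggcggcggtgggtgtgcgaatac

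Motifs were searched on both strands over these 250 bases and the first 50 of the transcript, and a match describes letters, not binding. Rhbdl1, alone of the 4, held CACGTG, the E-box that Myc binds, at position -178 from the start, a motif held by 8.03% of the 21213 promoters in the table. It also held CCAAT at -229, shared with 38.1% of promoters, and GGGCGG at 31, inside the transcript. Arrdc2 held GGGCGG, the GC-rich box of KLF and SP factors, at -207, -202, -197 and -82, and CCAAT at -250, -126 and -7, all on the opposite strand. Gpt2 held GGGCGG at -179 and -153 and CCACCC at -160. GGGCGG was found in 46.6% and CCACCC in 33.9% of promoters. None of the 4 promoters held CAGCTG (16.2% of promoters), AGAACA (16.5%), TATTTATA (1.52%), TATAAA (12.2%) or TGATGNAA (3.47%), of which TATTTATA on the opposite strand contains TATAAA. Dupd1 held none of these 9 motifs. The MEF2 consensus, searched after the sequences had been seen, matched Dupd1 35 bases before the start and none of the other 3, against 2.62% of all promoters.

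The total count was between 36088781 and 54679082 per library. OSKM was raised as labelled in EDL muscles after 2.5 and 8.5 days, with Pou5f1 (Oct4) at 17.5, 70.5, 76.2 and 57.7 FPKM in the Cre+ libraries and at most 0.0896 FPKM in any Cre- library. It was lower in Cre+ SOL muscles, where Klf4 and Myc did not pass the test at either day. Myc was still higher in both Cre+ SOL libraries than in both Cre- SOL libraries after 2.5 and after 8.5 days. After 2.5 days it had 8.17 and 14.03 FPKM in Cre+ against 2.45 and 1.95 FPKM in Cre-. Klf4 overlapped between the genotypes on both days. The paper reports Oct4, Sox2 and Myc as induced in SOL muscles and Klf4 as similar. The counts do not separate cassette from endogenous transcripts. The 5.5-day libraries stood apart. Pou5f1 had 1.02 and 27.7 FPKM in Cre+ EDL and 0.0785 and 0.387 FPKM in Cre+ SOL muscles of that day, and the authors removed samples without OSKM overexpression from their own analysis. Sex and day cannot be told apart: by Xist against Ddx3y, all 8 libraries of 2.5 days were male and all 16 of the later days female, within both muscles and both genotypes. The liver transcript Alb reached 501 and 3719 counts in replicates 1 and 2 of Cre- SOL after 8.5 days, and 180 and 312 counts in Cre- EDL. The Cre+ libraries of that day had 45 and 49 counts in SOL and 41 and 31 counts in EDL muscles. On the other days Alb lay between 15 and 122 counts. Its part in the differences between genotypes was not tested.

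In EDL muscles after 2.5 and 8.5 days, all 5 genes were lower in both Cre+ libraries than in both Cre- libraries. This held for 15.4% and 15.5% of all genes tested at the 2 days, and since the genes were chosen by this contrast nothing is read from the count. Dupd1 had 30.1 and 57.6 FPKM in Cre- EDL muscles after 2.5 days and 4.82 and 2.14 FPKM in Cre+. After 8.5 days it had 37.5 and 22.5 FPKM in Cre- and 1.29 and 2.02 FPKM in Cre+, the latter from 75 and 105 counts. Dupd1 thus had the largest falls of the 5, with a wide spread between the Cre- libraries of each day. Its log2 fold change, Cre+ over Cre-, was -3.97 (standard error 0.51) after 2.5 days and -4.35 (standard error 0.53) after 8.5 days, a level 15.7-fold and 20.4-fold lower. The value of 2.5 days rested on single libraries, with -3.40 when replicate 2 of Cre- was left out and -4.74 when replicate 1 of Cre+ was.

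Rhbdl1 had 21.7 and 24.7 FPKM in Cre- EDL muscles after 2.5 days and 3.53 and 3.49 FPKM in Cre+. After 8.5 days it had 24.8 and 21.6 FPKM in Cre- and 2.47 and 2.87 FPKM in Cre+. The replicates of this protease gene lay close together, and its standard error was the smallest of the 5. The log2 fold change was -3.05 (standard error 0.17) after 2.5 days and -3.29 (standard error 0.17) after 8.5 days.

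Arrdc2 had 94.2 and 88.5 FPKM in Cre- EDL muscles after 2.5 days and 21.3 and 15.9 FPKM in Cre+. After 8.5 days it had 51.4 and 70.8 FPKM in Cre- and 8.98 and 4.77 FPKM in Cre+. The log2 fold change of this alpha-arrestin was -2.62 (standard error 0.46) and -3.35 (standard error 0.48). Gpt2 had 124.6 and 113.6 FPKM in Cre- and 37.8 and 33.9 FPKM in Cre+ EDL muscles after 2.5 days. After 8.5 days it had 71.2 and 79.2 FPKM in Cre- and 15.5 and 14.1 FPKM in Cre+. Gpt2 had the smallest change after 2.5 days, -2.06 (standard error 0.22), and -2.53 (standard error 0.22) after 8.5 days.

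Prss55 was the one gene of the 5 whose change was smaller after 8.5 than after 2.5 days. It had 2.02 and 1.72 FPKM in Cre- EDL muscles after 2.5 days, from 90 and 79 counts, and 0.270 and 0.224 FPKM in Cre+, from 13 and 10 counts. After 8.5 days it had 2.20 and 2.11 FPKM in Cre- and 0.673 and 0.878 FPKM in Cre+, the latter from 36 and 42 counts. The log2 fold change was -3.23 (standard error 0.40) and -1.65 (standard error 0.35). Counted from the largest fall among the 15372 genes tested, Prss55 stood at place 38 after 2.5 days and at place 246 after 8.5 days. Over the same days Dupd1 stood at places 12 and 9, Rhbdl1 at 40 and 32, Arrdc2 at 55 and 30 and Gpt2 at 132 and 77.

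**Figure D1:**
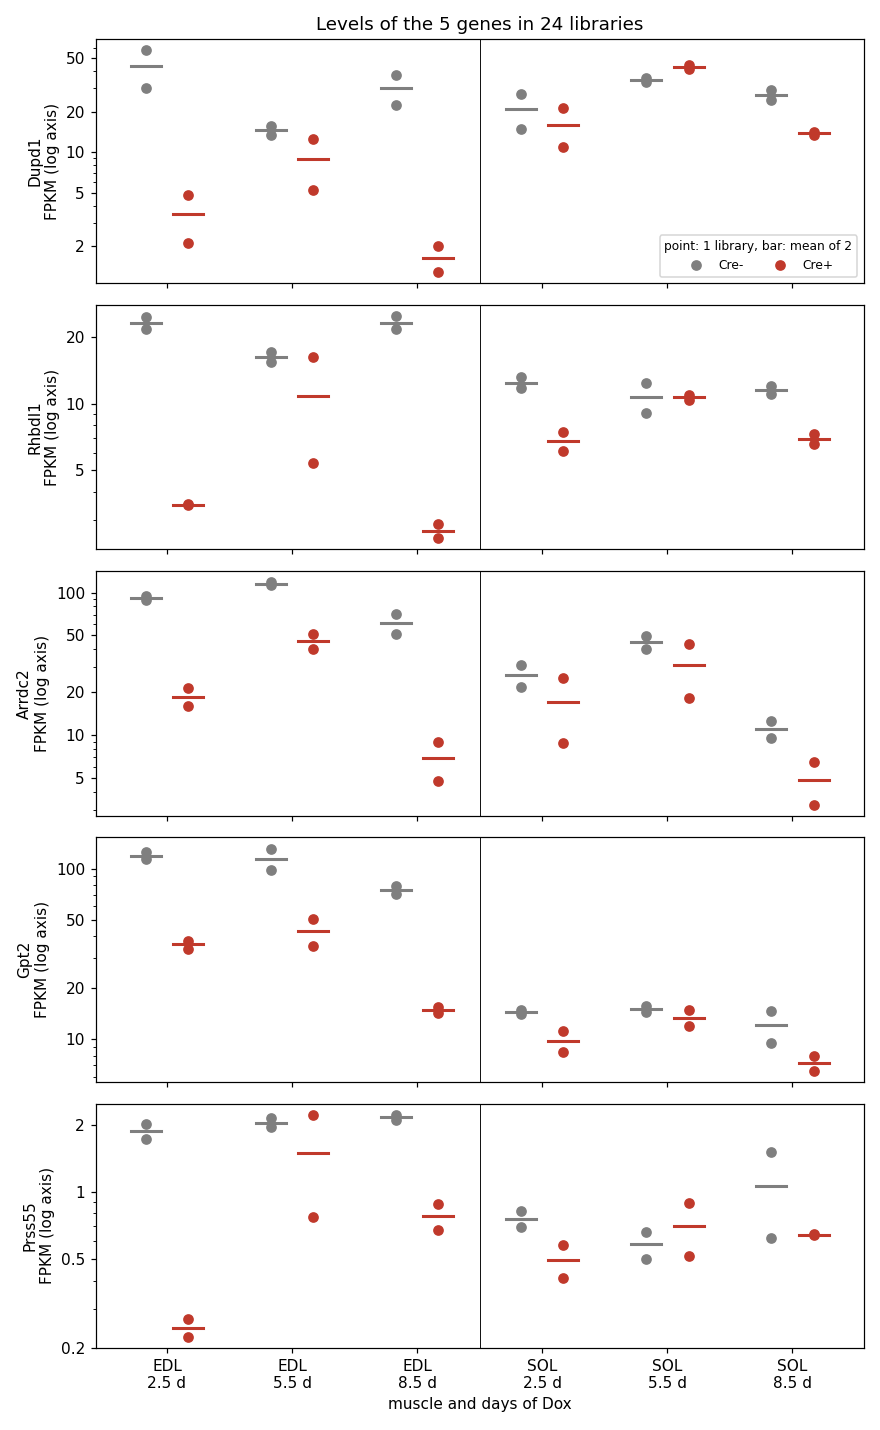
FPKM of the 5 genes (log axes) in every library, by muscle and days of Dox on the horizontal axis, with Cre- in grey, Cre+ in red, points for libraries and bars for the mean of 2. In EDL muscles after 2.5 and 8.5 days the red points lie below the grey ones for every gene, for Dupd1 after 8.5 days at 1.29 and 2.02 against 37.5 and 22.5 FPKM.

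In SOL muscles the differences between genotypes were smaller. Dupd1 had 14.8 and 27.3 FPKM in Cre- and 10.9 and 21.3 FPKM in Cre+ SOL muscles after 2.5 days, and 29.2 and 24.4 against 13.5 and 14.2 FPKM after 8.5 days. Arrdc2 had 31.1 and 21.9 FPKM in Cre- and 8.80 and 25.2 FPKM in Cre+ after 2.5 days, and 12.6 and 9.61 against 6.47 and 3.26 FPKM after 8.5 days. For both genes the groups overlapped after 2.5 days and not after 8.5 days.

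Rhbdl1 had 11.7 and 13.1 FPKM in Cre- and 7.43 and 6.11 FPKM in Cre+ SOL muscles after 2.5 days, and 12.02 and 11.01 against 6.58 and 7.31 FPKM after 8.5 days. Gpt2 had 14.8 and 13.9 against 8.37 and 11.1 FPKM after 2.5 days, and 14.6 and 9.49 against 6.52 and 7.96 FPKM after 8.5 days. Neither gene overlapped between the genotypes on either day. Prss55 had 0.693 and 0.822 FPKM in Cre- and 0.578 and 0.411 FPKM in Cre+ after 2.5 days, and 0.621 and 1.503 against 0.648 and 0.639 FPKM after 8.5 days, when the groups overlapped. Of the 5 genes, 3 were lower in both Cre+ SOL libraries than in both Cre- libraries after 2.5 days (10.5% of all genes tested) and 4 after 8.5 days (14.5%).

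In SOL muscles the log2 fold changes of 2.5 and 8.5 days were -0.54 and -0.99 for Dupd1, -1.03 and -0.77 for Rhbdl1, -0.80 and -1.24 for Arrdc2, -0.72 and -0.78 for Gpt2, and -0.76 and -0.74 for Prss55. Single libraries set several of these values. Prss55 after 8.5 days moved to -0.03 without the Cre- replicate 2, the library with 3719 Alb counts, and to -1.20 without the Cre- replicate 1, and whether liver RNA had a part in it was not tested. Arrdc2 after 2.5 days moved to -1.75 without the Cre+ replicate 2 and to -0.22 without the Cre+ replicate 1, and after 8.5 days to -1.78 without the Cre+ replicate 1. Dupd1 after 2.5 days moved to -1.10 when replicate 2 of Cre+ was left out, to -0.13 when replicate 1 of Cre+ was, and to -0.065 when replicate 2 of Cre- was. Gpt2 after 8.5 days moved to -0.37 without the Cre- replicate 1.

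The change in EDL minus the change in SOL muscles was negative for all 5 genes on both days, which the rule used. For Dupd1 it was -3.44 (standard error 0.66) after 2.5 days and -3.37 (standard error 0.68) after 8.5 days, the most negative of the 5. For Rhbdl1 it was -2.03 and -2.53, for Arrdc2 -1.82 and -2.11, and for Gpt2 -1.34 and -1.75. For Prss55 it was -2.47 after 2.5 days and -0.90 after 8.5 days, or, on the later day, -1.62 without the Cre- SOL replicate 2 and -0.44 without the Cre- SOL replicate 1. Without the Cre+ SOL replicate 2 of 2.5 days the difference of Arrdc2 was -0.87, and without replicate 1 it was -2.39.

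**Figure D2:**
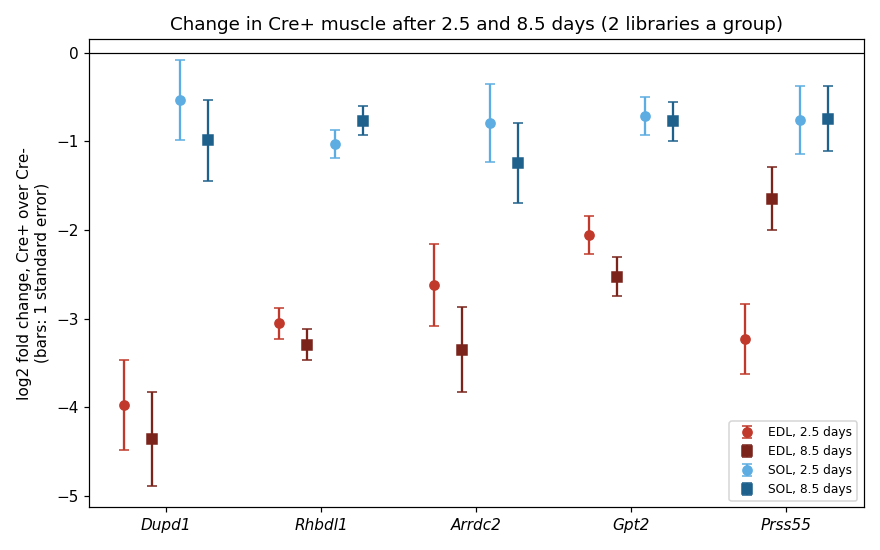
Log2 fold change, Cre+ over Cre-, of the 5 genes in EDL (red) and SOL (blue) muscles after 2.5 days (circles) and 8.5 days (squares), from the fit of 16 libraries with bars of 1 standard error. The EDL values run from -4.35 to -1.65 and the SOL values from -1.24 to -0.54, and these contrasts chose the genes.

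The rule that chose the genes does not name its days, so the changes in the 8 libraries of 5.5 days are given as a description too, with no p. Elsewhere, calls were made with edgeR's quasi-likelihood test, and needed a log2 fold change beyond 0.5 in either direction together with a p under 0.05 after Benjamini-Hochberg adjustment. By that measure 0.0452% of 15478 genes were lower and 0.258% higher in EDL muscles after 5.5 days, and of the 5 genes 1, Gpt2, was among the lower, from which nothing is read. Gpt2 had 97.4 and 130.9 FPKM in Cre- and 50.6 and 35.2 FPKM in Cre+ EDL muscles. Its log2 fold change was -1.56 (standard error 0.23). It was -1.32 without the Cre- replicate 2 and -1.33 without the Cre+ replicate 2.

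Arrdc2 had 50.9 and 40.0 FPKM in the Cre+ EDL libraries of 5.5 days, against 117.7 and 112.6 FPKM in Cre-. Its log2 fold change was -1.49 (standard error 0.45). Dupd1 had 12.6 and 5.24 FPKM in Cre+ against 15.7 and 13.5 FPKM in Cre- (log2 fold change -0.85, standard error 0.45). Rhbdl1 had 16.2 and 5.41 FPKM against 17.1 and 15.5 FPKM (-0.74, standard error 0.31), and Prss55 2.21 and 0.768 FPKM against 1.94 and 2.14 FPKM (-0.60, standard error 0.41). For these last 3 genes replicate 1 lay near the Cre- level and replicate 2 well under it.

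The Cre+ EDL replicate 1 of 5.5 days was the library with 1.02 FPKM of Pou5f1, and replicate 2 the one with 27.7 FPKM. In percent of the Cre- mean of that day, replicates 1 and 2 stood at 86.6 and 35.9 for Dupd1, 99.4 and 33.2 for Rhbdl1, and 108.5 and 37.7 for Prss55. Arrdc2 at 44.2 and 34.7 percent and Gpt2 at 44.3 and 30.8 percent were also reduced in the library with little Pou5f1. The log2 fold change of Rhbdl1 was -1.73 without replicate 1 and -0.16 without replicate 2, and its difference from SOL muscles -1.66 and -0.089. For Dupd1 the same fits gave -1.62 and -0.36, and for Prss55 -1.54 and -0.032, so that each value then rested on 1 Cre+ library. The part of the OSKM level in these values was not tested, since it was read from the same libraries.

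**Figure D3:**
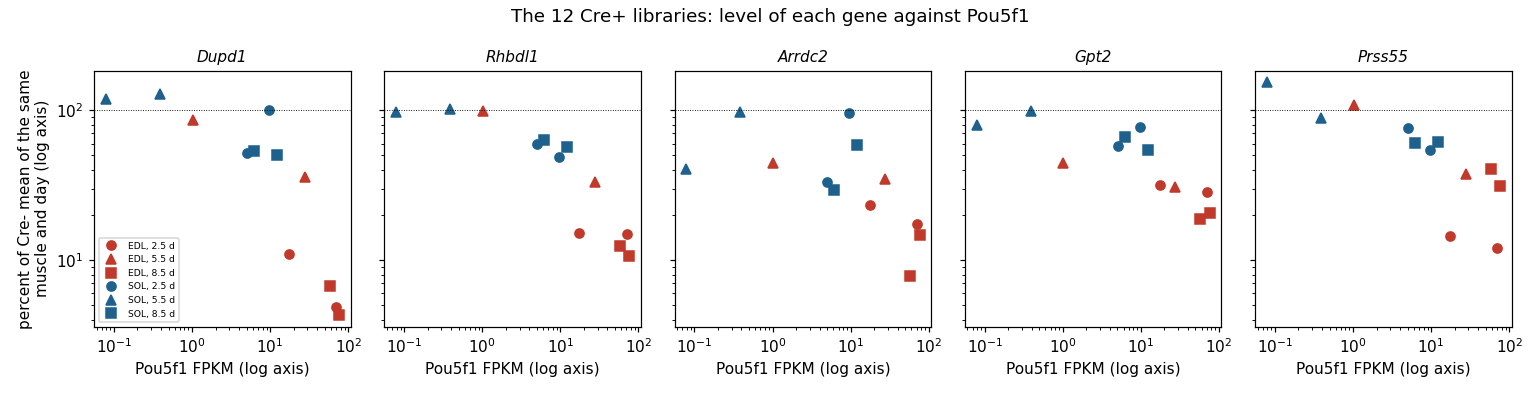
Level of each gene in the 12 Cre+ libraries, in percent of the Cre- mean of the same muscle and day (log axis), against the Pou5f1 FPKM of the library (log axis), with EDL in red, SOL in blue and a marker for each day. The 4 EDL libraries of 2.5 and 8.5 days lie lowest for Dupd1, Rhbdl1 and Arrdc2. The EDL library with 1.02 FPKM of Pou5f1 lies at 99.4 percent for Rhbdl1 and 44.3 percent for Gpt2.

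In SOL muscles after 5.5 days no call was made among the 15478 genes (0% in either direction by edgeR, 0 genes by DESeq2 and 597 genes at an unadjusted p under 0.05). The log2 fold changes were 0.24 for Dupd1, -0.07 for Rhbdl1, -0.59 for Arrdc2, -0.23 for Gpt2 and 0.21 for Prss55. The Arrdc2 value rested on single libraries, with -0.09 without the Cre+ SOL replicate 1 and -1.36 without replicate 2. In percent of the Cre- mean these replicates stood at 40.6 and 97.6 for Arrdc2, with Pou5f1 at 0.0785 and 0.387 FPKM. The difference in change between EDL and SOL muscles after 5.5 days was called for 0.0129% of all genes, none of them a member. For Gpt2 it was -1.33 (standard error 0.32).

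The muscles also differed without OSKM, in a contrast that the rule did not use, though it may share the Cre- libraries of 5.5 days with the choice of the genes. A high Cre- EDL value or a low Cre- SOL value makes the changes that the rule looked for more negative. Where these libraries were used, the choice thus favoured a higher EDL level. The p-values below are then not independent of the choice, and nothing is read from the number of calls. In Cre- mice after 5.5 days Gpt2, Prss55 and Arrdc2 were called higher in EDL than in SOL muscles, against 9.6% of all genes called higher and 10.2% called lower there. Gpt2 had 97.4 and 130.9 FPKM in EDL and 15.5 and 14.4 FPKM in SOL muscles, a log2 fold of 3.04 (standard error 0.24, adjusted p = 2.03e-07). Prss55 had 1.94 and 2.14 FPKM against 0.501 and 0.661 FPKM (1.92, standard error 0.44, adjusted p = 0.00387), a call lost without the Cre- SOL replicate 1 (adjusted p = 0.0571). Arrdc2 had 117.7 and 112.6 FPKM against 49.3 and 39.9 FPKM (1.48, standard error 0.45, adjusted p = 0.0235), a call lost without any one of the 4 libraries (adjusted p from 0.0750 to 0.145).

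Rhbdl1 and Dupd1 were not called between the muscles. Rhbdl1 had 17.1 and 15.5 FPKM in EDL and 9.06 and 12.4 FPKM in SOL muscles (log2 fold 0.71, standard error 0.31, adjusted p = 0.110), and was called without either Cre+ EDL library of 5.5 days (adjusted p = 0.00486 and 0.00477). Dupd1 ran the other way, with 15.7 and 13.5 FPKM in EDL and 33.6 and 35.8 FPKM in SOL muscles (-1.14, standard error 0.44, adjusted p = 0.0758). With the muscles paired by library number, Dupd1 was called lower in EDL muscles (-1.14, adjusted p = 0.0448), as it was with library size alone (-1.25, adjusted p = 0.0490) and in a fit of that day's libraries (-1.12, adjusted p = 0.0329).

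The Cre- libraries of 2.5 and 8.5 days, which entered the choice of the genes, are given beside these as values. The log2 fold of EDL over SOL after 2.5 and 8.5 days was 3.12 and 2.70 for Gpt2, 1.85 and 2.53 for Arrdc2, 1.37 and 1.10 for Prss55 and 0.97 and 1.08 for Rhbdl1. For Dupd1 it was 1.15 and 0.22, so the sign of its difference between muscles depended on the day, and after 8.5 days it was -0.16 without the Cre- EDL replicate 1. The order of the 4 muscle and genotype medians of Gpt2 was Cre- EDL (105.5 FPKM), Cre+ EDL (34.5 FPKM), Cre- SOL (14.5 FPKM) and Cre+ SOL (9.73 FPKM). The ranges of Cre- EDL (71.2 to 130.9 FPKM) and Cre+ EDL (14.1 to 50.6 FPKM) did not overlap, while Cre+ EDL reached down into Cre- SOL (9.49 to 15.5 FPKM), which overlapped Cre+ SOL (6.52 to 14.7 FPKM).

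**Figure D4:**
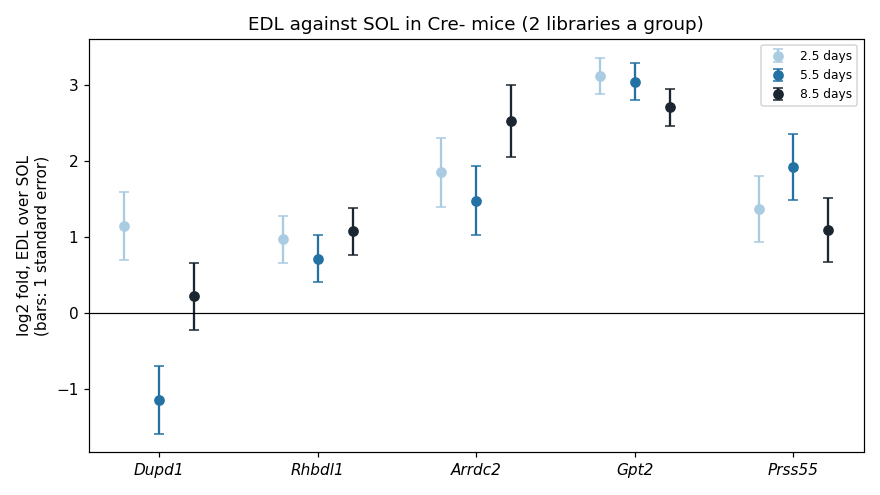
Log2 fold of EDL over SOL muscles in Cre- mice for the 5 genes after 2.5, 5.5 and 8.5 days, with bars of 1 standard error. Gpt2 lies between 2.70 and 3.12 on all days, while Dupd1 runs from 1.15 through -1.14 to 0.22.

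The control muscles themselves varied over the days, which bears on the levels above and shares libraries with the choice of the genes. The p-values of these contrasts between days are thus not independent of the choice, and nothing is read from the number of calls. Between 5.5 and 2.5 days none of the 5 was called in Cre- EDL muscles (2.84% of all genes) or in Cre- SOL muscles (1.86%). Dupd1 in EDL muscles had 15.7 and 13.5 FPKM after 5.5 against 30.1 and 57.6 FPKM after 2.5 days (log2 fold change -1.46, adjusted p = 0.0810). In SOL muscles over the same days it had a value of 0.82, the opposite sign. The days differed in sex as stated above.

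Between 8.5 and 5.5 days, both female, Gpt2 was called in Cre- EDL muscles and Arrdc2 in Cre- SOL muscles, against 7.14% and 10.6% of all genes. Gpt2 fell in EDL muscles, with a log2 fold change of -0.78 (standard error 0.22) and an adjusted p of 0.0414, a call lost in 12 of 24 fits that each left out 1 library (adjusted p up to 0.330, without the Cre- EDL replicate 2 of 5.5 days). Arrdc2 had 12.6 and 9.61 FPKM in Cre- SOL muscles after 8.5 days against 49.3 and 39.9 FPKM after 5.5 days. Its log2 fold change was -2.13 (standard error 0.46, adjusted p = 0.00780), and the call was lost without the 5.5-day replicate 1 (adjusted p = 0.0690) or the 8.5-day replicate 2 (adjusted p = 0.0782). In Cre- EDL muscles the change of Arrdc2 was -1.08 (adjusted p = 0.137). The highest of the 6 Cre- SOL libraries was 5.14 times the lowest for Arrdc2, against 1.45 times for Rhbdl1.

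The other genes of each family were taken from lists and tested in EDL muscles, where 13.8% of all genes rose and 10.2% fell after 2.5 days and 7.63% rose and 6.5% fell after 8.5 days. In SOL muscles 0.039% fell after 2.5 and 0.299% after 8.5 days, and of the family lists 1 gene, the aminotransferase Tat, passed the test there, on the day with the Alb counts given above (-3.77 after 8.5 days, adjusted p = 0.0449). The change in EDL minus that in SOL muscles was called more positive for 3.36% and more negative for 0.891% of all genes after 2.5 days, and for 0.533% and 0.0585% after 8.5 days. Of 122 tested genes of the lists and neighbours below, 7 and 4 were so called after 2.5 days and 1 and 0 after 8.5 days.

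Of 23 other dual-specificity phosphatases tested, 2 rose and 5 fell in EDL muscles after 2.5 days, and 1 rose and 1 fell after 8.5 days. With library size alone the balance turned, to 3 rises and 2 falls after 2.5 days. Their median log2 fold change was -0.12 and 0.00, against -0.05 and -0.02 for all genes. Dusp13, the phosphatase gene next to Dupd1 on chromosome 14, fell on both days, with log2 fold changes of -1.54 (adjusted p = 0.000504) and -1.03 (adjusted p = 0.0101). It had 87.8 and 81.3 FPKM in Cre- and 45.5 and 26.7 FPKM in Cre+ EDL muscles after 2.5 days, and 85.4 and 71.7 against 42.3 and 44.8 FPKM after 8.5 days. Its later call was lost in 2 of 16 fits that left out 1 library, those without the Cre- or the Cre+ EDL replicate 1 of 8.5 days (adjusted p up to 0.109). Dusp14 rose by 1.63 and 1.99, and by 1.64 after 5.5 days (adjusted p = 0.0449, and from 0.274 to 0.513 without the Cre- replicate 1 or 2 or the Cre+ replicate 2 of that day), while Dusp26, the most abundant of the list, had 0.01 and 0.46 and was not called.

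Of 8 other rhomboid genes, 2 rose and 2 fell after 2.5 days, and none rose and 2 fell after 8.5 days. Their median was -0.05 and -0.01. Rhbdl3, another rhomboid protease gene, fell on both days, with log2 fold changes of -1.38 (adjusted p = 0.000176) and -0.80 (adjusted p = 0.00916), the latter lost without the Cre+ EDL replicate 2 of its day (adjusted p = 0.0723). Rhbdf2, an inactive rhomboid that helps to bring the sheddase of tumour necrosis factor to the cell surface, had calls of -0.89 (adjusted p = 0.00461, or 0.0526 when replicate 2 of the Cre+ EDL libraries was left out) and -0.70 (adjusted p = 0.0279, lost without any one of the EDL libraries of its day, with an adjusted p up to 0.160, and with library size alone). Parl, the mitochondrial rhomboid and the most abundant, had 0.13 and -0.21 and was not called.

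Of 4 other alpha-arrestins tested, 1 fell after 2.5 and 2 after 8.5 days, and none rose. Their median was -0.10 and -0.56. Arrdc3 fell on both days (-1.16, adjusted p = 0.000924, and -1.46, adjusted p = 0.000436), and also after 5.5 days (-1.18, adjusted p = 0.0132). The 5.5-day call was lost without either Cre- replicate or the Cre+ replicate 2 of that day (adjusted p from 0.138 to 0.183). Arrdc4 had a call after 8.5 days (-0.57, adjusted p = 0.0453) that was lost with library size alone (adjusted p = 0.208). The call was also lost without any 1 EDL or SOL library of that day, or either Cre- EDL library of 2.5 days. Without 1 EDL library of 8.5 days its value lay between -0.70 and -0.45. Txnip, the most abundant, which binds thioredoxin and limits glucose uptake, had 0.07 and -0.55 and was not called.

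Of 8 Nedd4-family ubiquitin ligases, 3 rose and none fell after 2.5 days, and 1 rose and 1 fell after 8.5 days. Their median was 0.01 and -0.14. Wwp2 rose on both days, by 1.81 (adjusted p = 1.69e-05) and 1.59 (adjusted p = 5.44e-05). Nedd4, the most abundant, had 0.06 and 0.03 and was not called.

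Arrdc2 also belongs to the genes known to respond to glucocorticoids in muscle. Of 21 such genes, 3 rose and 5 fell after 2.5 days, and 2 rose and 7 fell after 8.5 days. Their median was -0.37 and -0.64. The metallothionein genes Mt2 (1.96 and 1.91) and Mt1 (1.49 and 1.54) rose on both days, while the kinase gene Sgk1 fell (-1.22, adjusted p = 0.0423, and -1.71, adjusted p = 0.0150). The Sgk1 call of 2.5 days held in 7 of 16 fits with 1 library left out (adjusted p up to 0.286) and was lost with library size alone, and that of 8.5 days was lost without the Cre- replicate 1 or the Cre+ replicate 2 (adjusted p up to 0.115). Mt2 lost its call without 3 of the 4 EDL libraries of 2.5 days, all but the Cre+ replicate 1 (adjusted p up to 0.124), and without replicate 1 of either genotype at 8.5 days (adjusted p up to 0.252). Pdk4, which slows the entry of pyruvate into the citric acid cycle, had 0.46 and 0.04 and was not called. When TMM was replaced by library size alone, 4 of the 21 rose and 3 fell after 2.5 days, and 2 rose and 4 fell after 8.5 days.

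Beside Gpt2, 9 aminotransferases were tested, of which 1 rose and 3 fell on each day. Their median was -0.41 and -0.27. Psat1, of serine synthesis, rose by 2.78 (adjusted p = 7.04e-05) and 1.72 (adjusted p = 0.00230). Got1, the cytosolic aspartate aminotransferase, fell on both days (-1.19, adjusted p = 0.000295, and -0.76, adjusted p = 0.00791), the latter lost without the Cre+ EDL replicate 1 of its day (adjusted p = 0.0983). Oat, ornithine aminotransferase, fell too (-1.04, adjusted p = 0.00148, and -0.69, adjusted p = 0.0248), the latter lost without the Cre- EDL replicate 2 or the Cre+ EDL replicate 1 of its day (adjusted p up to 0.241).

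Of 19 genes of pyruvate and glutamate metabolism, 2 rose and 10 fell after 2.5 days, and 1 rose and 9 fell after 8.5 days. Their median was -0.56 on both days, against -0.05 and -0.02 for all genes. With library size alone, which moved the median of all genes to 0.28 and 0.16, the falls were 2 and 4. Mdh1, cytosolic malate dehydrogenase, fell on both days (-1.17, adjusted p = 0.00110, and -0.86, adjusted p = 0.0124). So did Mpc2, a subunit of the mitochondrial pyruvate carrier (-0.85, adjusted p = 0.00133, and -0.81, adjusted p = 0.00359). The aspartate-glutamate carrier gene Slc25a13 rose by 3.50 (adjusted p = 0.000202) and 1.79 (adjusted p = 0.0174). Ldha, the most abundant, fell after 2.5 days (-0.70, adjusted p = 0.0296) and had -0.24 after 8.5 days, and its call was lost with library size alone and without replicate 2 of either genotype (adjusted p up to 0.221). Without replicate 1 of either genotype in EDL muscles of 8.5 days the later calls of Mdh1 and Slc25a13 were lost (adjusted p up to 0.144 and 0.136), and without the Cre+ replicate 1 that of Mpc2 (0.0547).

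Of 37 other Prss serine protease genes in the table, 8 passed the filter, of which 1 rose and none fell on each day. This was Prss36, with 1.41 (adjusted p = 0.00169) and 0.84 (adjusted p = 0.0440), the latter called in only 2 of 16 fits with 1 library left out (adjusted p up to 0.189). Prss23, the most abundant, had -0.29 and -0.59 and was not called. The nearest Prss gene, Prss51, 891 bases from Prss55, was too low to be tested.

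**Figure D5:**
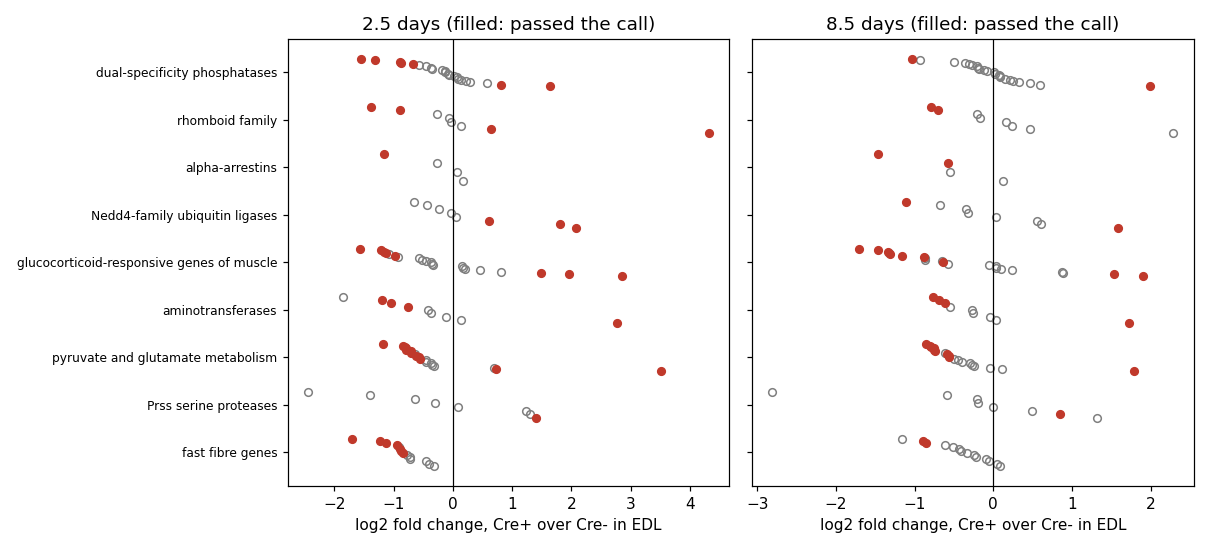
Log2 fold change, Cre+ over Cre-, in EDL muscles after 2.5 days (left) and 8.5 days (right) of the genes of each family or pathway list and of fast fibre genes, with 1 point per gene, filled where it was called. In pyruvate and glutamate metabolism 10 and 9 of 19 genes fell, while in the dual-specificity phosphatases 5 and 1 of 23 did, or 2 and 1 with library size alone.

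The nearest genes on the chromosome were followed to see whether the falls reached beyond the 5 genes. Of 24 tested genes within 50 kb of a member, 3 rose and 2 fell in EDL muscles after 2.5 days and 2 rose and 5 fell after 8.5 days, beside the shares of all genes given above. With library size alone the later falls of Dnaja2, Metrn and Msra were not called. Mettl26, Rab40c, Samd8, Stub1 and Wdr24 were then called after 2.5 days, though not with TMM. On both days 2 fell, Dusp13 beside Dupd1 and Rhot2 beside Rhbdl1, and 2 rose, Il12rb1 beside Arrdc2 and Haghl, 48879 bases from Rhbdl1 (1.59, adjusted p = 3.38e-05, and 1.09, adjusted p = 0.000699). Rhot2, a mitochondrial GTPase gene 1711 bases from Rhbdl1, had log2 fold changes of -0.87 (adjusted p = 0.000191) and -0.88 (adjusted p = 0.000348). Stub1, 1104 bases away on the other side, had 0.32 and 0.15 and was not called with TMM, and Kat6b, 4094 bases from Dupd1, had -0.23 and -0.27 and was not called either. Kcnn1, 2329 bases from Arrdc2, had -0.01 and -0.05. Dnaja2, 10082 bases from Gpt2, had -0.34 and fell after 8.5 days (-0.54, adjusted p = 0.00891), a call not made with library size alone or without the Cre- or Cre+ EDL replicate 1 of its day (adjusted p up to 0.105).

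On the other side of Arrdc2, 13715 bases away, Il12rb1, a subunit of interleukin receptors, changed the opposite way. It had 2 and 1 counts in Cre- and 332 and 824 counts in Cre+ EDL muscles after 2.5 days, and 1 and 3 against 88 and 23 counts after 8.5 days. Scaled to the library totals, its counts were 375-fold higher in Cre+ (95% exact interval of the counts 128 to 1823) and 21.4-fold higher (8.13 to 79.96), intervals that cover counting error only. Both changes passed the test (adjusted p = 4.92e-05 and 0.00726), the later one not without the Cre- or the Cre+ EDL replicate 1 of 8.5 days (adjusted p up to 0.0853).

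The genes whose pattern was most like that of each member were found by the root mean square difference of centred log2 levels over the 12 group means, among 15477 other genes, as a description over groups that share day, muscle and genotype. For Dupd1 these were Gm7538 (0.546), Hist1h1e (0.718) and Stab2 (0.719), and for Rhbdl1 Nctc1 (0.414), Gm15179 (0.433) and 1700027J07Rik (0.462). For Arrdc2 they were Gadd45g (0.623), Chac1 (0.626) and Epop (0.634). For Gpt2 they were 2210011C24Rik (0.354), 4933401D09Rik (0.367) and Phkg1 (0.382), and for Prss55 Mpp3 (0.319), Ampd1 (0.345) and St8sia5 (0.367). The lowest in level among these genes were Gm7538 (mean of 24 libraries 0.243 FPKM), Stab2 (0.414 FPKM), 1700027J07Rik (0.167 FPKM) and 4933401D09Rik (0.138 FPKM). Phkg1, a subunit of muscle phosphorylase kinase, had, for 2.5 and 8.5 days, log2 fold changes of -2.27 and -1.82 in EDL and of -0.66 and -0.47 in SOL muscles. Ampd1, the AMP deaminase of muscle, had -2.01 and -0.72 in EDL muscles. These same groups entered the measure that found the genes, so a change like that of the member is no separate result.

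Some pairs of the 5 genes were close to each other and some were not. The measure includes the EDL groups whose falls chose the genes, so closeness among them is partly built in by the choice. Rhbdl1 stood at place 5 among the genes most like Dupd1 (0.795) and Gpt2 at place 6 among those most like Arrdc2 (0.800), and Prss55 at place 43 for Rhbdl1 (0.616), 199 for Arrdc2 (1.098) and 344 for Gpt2 (1.00). The pair least alike was Dupd1 and Gpt2 (1.86), at place 13993.

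Markers of other cells were read beside the falls. No marker list of satellite cells, macrophages, neutrophils, fibroblasts, Schwann cells, adipocytes or erythroid cells had a called gene in EDL muscles on either day, nor did the 10 slow fibre genes. With library size alone 1 of these markers, Pax7 of satellite cells, was called higher on both days (0.59 and 0.70, against 0.26 and 0.52 with TMM). Of 6 endothelial markers 3 fell after 2.5 days, but none with library size alone. Over all days their summed level was 65.7 to 103 FPKM in the 6 Cre- and 63.7 to 107 FPKM in the 6 Cre+ EDL libraries. After 2.5 days alone it was lower in Cre+ (73.7 to 75.4 FPKM) than in Cre- (79.4 to 92.0 FPKM). After 8.5 days the genotypes overlapped (95.4 to 107 FPKM in Cre+ and 91.4 to 103 FPKM in Cre-). Of 14 fast fibre genes 7 fell after 2.5 and 2 after 8.5 days, or 4 and 2 with library size alone, and none rose. Over all days their summed level was 104835 to 128940 FPKM in Cre- and 77393 to 117708 FPKM in Cre+ EDL libraries, ranges that overlapped, with medians of 117022 and 99722 FPKM. After 2.5 days alone it was 116785 to 128940 FPKM in Cre- and 77393 to 96514 FPKM in Cre+. After 8.5 days it was 107928 to 119885 FPKM in Cre- and 88575 to 102929 FPKM in Cre+, so on neither of these days did the genotypes overlap. Tnni2, fast troponin I, fell on both days (-1.23 and -0.89), the latter lost without replicate 1 of either genotype (adjusted p up to 0.182). Tnnt3, fast troponin T and the most abundant of that list, fell too (-0.94 and -0.86), the latter called in 5 of 16 fits with 1 library left out (adjusted p up to 0.292) and the former lost without replicate 2 of either genotype (adjusted p up to 0.133). The part of these fibre genes in the falls of the 5 genes was not tested. The muscles carried their labels, with summed slow fibre genes at 280 to 1989 FPKM in EDL and 37220 to 59727 FPKM in SOL libraries.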

How the data were processed

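Counts of stranded single-end polyA RNA-seq were taken from 24 libraries. The authors aligned reads to mm10 with STAR 2.5.3a and counted those uniquely aligned to RefSeq exons with HOMER, and deposited raw counts per gene with replicates kept apart. Whether the counting used strand is not given in the sources used here. FPKM were computed from the counts, exon length and library total. Changes were tested in R 4.3.3 with edgeR 4.0.16 (quasi-likelihood test, TMM, minimum count 10, Benjamini-Hochberg over all genes tested). The 16 libraries of 2.5 and 8.5 days gave 15372 tested genes and all 24 libraries 15478. The study describes the 2 libraries of a group as independent biological samples, and the labels name no animals, so p-values measure the spread between these samples. With 2 against 2 libraries an exact two-sided permutation p cannot go below 0.333.

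The members and lists were chosen with earlier results of these data known. Named genes were the members, their 3 most like genes, the most abundant gene and up to 3 genes with the largest shared EDL change of each list, the nearest neighbours and OSKM. Other genes were named where a count was small, and Alb, Xist and Ddx3y after their values were seen. Tat, Arrdc4, Smurf1, Haghl and Pax7 were likewise named after their values were seen. Same-numbered EDL and SOL libraries deviated together (correlation 0.173 to 0.445 in 6 of 6 pairs), so a replicate block was added for comparisons between muscles. Alternatives were DESeq2 1.42.0, other scalings, filters, thresholds and libraries, and leaving out each library. On simulated data for EDL muscles after 2.5 days (15144 genes), 100% of changes of -3 and 92% of -1.5 were recovered, and after 5.5 days (15207 genes) 100% and 86%. The simulation changed 50 genes per size of change, as many up as down, and drew them from genes with high counts. It thus does not show the recovery at low counts or where many genes change.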

Additional observations from a re-analysis of the deposited data

Results flagged for a closer look

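The change in Cre+ against Cre- mice differed between EDL and SOL muscles after 2.5 days for 7 genes more positively and 4 more negatively, of 122 tested genes of the families and neighbours, by a test of the difference itself (edgeR, adjusted p under 0.05 over all genes), against 3.36% and 0.891% of all genes. Several were named for their large change in EDL muscles, so their differences do not stand apart from that choice. Values are log2 changes in EDL minus SOL muscles. After 2.5 days the difference was more negative in EDL muscles for the rhomboid gene Rhbdl3 (-1.24, from -1.38 in EDL and -0.14 in SOL muscles, adjusted p = 0.0165), the alpha-arrestin gene Arrdc3 (-1.18, from -1.16 and 0.03, adjusted p = 0.0319), the aminotransferase gene Got1 (-0.92, from -1.19 and -0.26, adjusted p = 0.0443) and Kat6b, the neighbour of Dupd1 (-0.65, from -0.23 and 0.41, adjusted p = 0.0318). It was more positive for the ubiquitin ligase gene Wwp2 (1.61, from 1.81 and 0.20, adjusted p = 0.00402), Psat1 (2.32, from 2.78 and 0.46, adjusted p = 0.0108), Slc25a13 (2.81, from 3.50 and 0.69, adjusted p = 0.0250), Prss36 (1.41, from 1.41 and 0.00, adjusted p = 0.0496) and Stub1, the neighbour of Rhbdl1 (0.68, from 0.32 and -0.36, adjusted p = 0.0429). With the muscles paired by library number Prss36 no longer passed (adjusted p = 0.0579). The other two were the ubiquitin ligase gene Smurf1 (1.99, adjusted p = 0.0243) and Haghl near Rhbdl1 (1.59 in EDL and 0.36 in SOL muscles), named after their values were seen. After 8.5 days Wwp2 was the one of the 122 that differed (1.13, from 1.59 and 0.45, adjusted p = 0.0475), against 0.533% of all genes more positive. With TMM neither Kat6b nor Stub1 passed the test in either muscle alone.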

How the results depend on the processing

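The 5 genes stayed lower in Cre+ EDL muscles after 2.5 and 8.5 days under every alternative run. Library size alone moved the median of all genes from -0.05 to 0.28 and from -0.02 to 0.16 there and the share of rises among called genes from 57.5% to 87.3% and from 54.0% to 78.3%. Rhbdl1 then had -2.72 and -3.12, and Gpt2 -1.73 and -2.34.

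The count of the 5 genes called moved as follows, with the contrasts of genotype after 5.5 days given as descriptions. A fit without 1 library leaves a group of 1, assumed to vary like the other groups. In Cre- EDL muscles between 5.5 and 2.5 days it went from 0 to 1 with library size alone or no filter (Dupd1, adjusted p = 0.0488 and 0.0481). Between 8.5 and 5.5 days it went from 1 to 0 with library size alone, at least 10 counts in every library, an adjusted p under 0.01, a log2 fold change over 1 or the libraries of 1 muscle, and ranged from 0 to 1 with a library left out. The difference of 5.5 days went from 0 to 1 with DESeq2. With a library left out it ranged from 0 to 1, EDL muscles of 5.5 days from 0 to 2, EDL against SOL from 1 to 4, and Cre- SOL muscles between 8.5 and 5.5 days from 0 to 1. Of the 5 most like genes, 0 were shared for each member when Cre- means alone were used. With Pearson's r over 24 libraries the shared number was 0 for Dupd1 and Rhbdl1 and 1 for Arrdc2, Gpt2 and Prss55.

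Values near 0 changed sign. With library size alone these were Gpt2 between 5.5 and 2.5 days in Cre- EDL muscles (-0.060), Prss55 between 8.5 and 5.5 days in Cre- EDL muscles (0.079) and Rhbdl1 between 8.5 and 5.5 days in Cre- SOL muscles (0.105, and 0.021 with at least 10 counts in every library). With a library left out the ranges were -0.16 to 0.28 for that Gpt2 value, -0.25 to 0.23 for that Rhbdl1 value, -0.38 to 0.10 for Rhbdl1 between 5.5 and 2.5 days in Cre- SOL muscles, and in SOL muscles of 5.5 days -0.29 to 0.19 for Rhbdl1 and -0.23 to 0.56 for Prss55. The cause was not tested.

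Same-numbered Cre+ and Cre- libraries did not deviate together (correlation -0.169 to 0.0578). With that replicate block 0 of the 5 genes were called in EDL muscles of 5.5 days. For 5.5 days that count was 1 without the block. The block of paired muscles called Dupd1 between muscles, as given above, and changed no other call of the 5 genes.

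Over all genes the counts called moved from 3684 to as low as 1761 in EDL muscles after 2.5 days and from 2172 to 738 after 8.5 days, and in SOL muscles from 59 to between 7 and 369 and from 97 to between 15 and 169. The differences between muscles moved from 654 to between 117 and 1785 and from 91 to between 2 and 344. After 5.5 days EDL muscles moved from 47 to between 3 and 171, SOL muscles from 0 to 11, the difference from 2 to between 0 and 27, and EDL against SOL from 3058 to 1638. The control days moved from 439 to between 17 and 840, from 1105 to 57, from 288 to between 16 and 699 and from 1635 to 285. Prss55 had 10 to 13 counts in Cre+ EDL libraries of 2.5 days, which limits its precision.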
